A study of Mus musculus with 4 samples.

Results

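This account concerns 54 genes of DNA replication and nucleotide synthesis, taken by name from the 17621 genes of the deposited tables. They encode the replicative helicase, the origin licensing and firing factors, the DNA polymerases with primase, the sliding clamp and its loader, fork and Okazaki fragment proteins, deoxynucleotide enzymes, histone chaperones behind the fork, and the E cyclins and E2F factors of S phase entry. All 54 were detected in every library and passed the minimum mean of 1 CPM that left 12976 genes to compare, where CPM is a gene's count scaled to a library of 1000000 counts, here after TMM scaling of the library sizes.

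Total RNA was taken from primary cultures of neural stem cells of the P0 mouse cortex, in a study of Seh1, a protein of the nuclear pore. Ctrl cells carried the floxed alleles alone (genotype Seh1 f/f). iKO cells carried the same floxed alleles with a Cre recombinase fused to an oestrogen receptor domain (genotype cmv-cre-ert, Seh1 f/f). Each genotype was sequenced on day 0, in medium that held EGF and bFGF and keeps the cells dividing, and on day 3 of differentiation, with both factors withdrawn. The CMV promoter that drives the recombinase is not restricted to 1 cell type, and the sources used here name no inducer. Each of the 4 groups was 1 library, so the differences below lack a replicate check and carry no p-value. Intervals are exact 95% intervals of the 2 counts and cover counting error only.

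DNA replication starts at origins that are licensed in G1, when the origin recognition complex with Cdc6 and Cdt1 loads the MCM helicase onto DNA. In S phase the kinases Cdc7-Dbf4 and cyclin E-Cdk2 convert the loaded helicase into an active one with Cdc45 and GINS, and the polymerases, the clamp and the ligase copy and join the strands. Most of these genes are transcribed at the entry into S phase by E2F factors, which the retinoblastoma family restrains in cells that leave the cycle. In the neural lineage, cycling progenitors express them and most differentiated neurons and glia do not.

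Library totals lay between 19611747 and 21040586 expected counts. Seh1l, the gene that encodes Seh1, stood on day 0 at 40.3 CPM in Ctrl and 19.2 in iKO, and on day 3 at 33.2 and 11.0. It was therefore 2.10-fold lower in iKO at day 0 (interval 1.86 to 2.37) and 3.01-fold lower at day 3 (2.58 to 3.54). Neural stem and progenitor markers were present in every library (7 of 7 compared, 4595 to 5881 CPM summed). Microglial markers (0 of 6 compared, 0.205 to 0.839 CPM summed) and endothelial markers (0 of 5 compared, 1.57 to 3.76 CPM summed) were near 0. Of the microglial genes, Aif1, C1qa and C1qb had no count in 3 of the 4 libraries. The 6 astrocyte markers summed on day 0 to 1701 CPM in Ctrl and 2274 in iKO, and on day 3 to 8850 and 9012. The 6 oligodendrocyte lineage markers summed to 239 and 173 CPM at day 0 and to 1059 in Ctrl against 146 in iKO at day 3, and the 6 neuronal markers to 1700 against 910 at day 3. The part of these cell type differences in the values below was not tested.

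The promoters of the 54 genes were read first, because this group is known as a set of E2F targets. RefSeq (build GRCm38.p6) gave 54 windows for 45 of the 54 genes, each running from 250 bases before to 50 after an annotated start. The search took the E2F core words TTTCCCGC, TTTCGCGC, TTTGCCGC and TTTGGCGC on both strands, counting overlapping matches as 1. Shown are the 4 genes whose windows held 2 separate E2F matches (Mcm6, Mcm3, Mcm7 and Rfc3). Then come the gene with the lowest day 3 to day 0 ratio in Ctrl (Tk1) and the one with the highest ratio among genes with a single window (Rfc1). All lie on the minus strand, are printed 5′ to 3′ in the direction of the gene, and have the E2F words in capitals.
Mcm6 (chr1:128359656-128359955): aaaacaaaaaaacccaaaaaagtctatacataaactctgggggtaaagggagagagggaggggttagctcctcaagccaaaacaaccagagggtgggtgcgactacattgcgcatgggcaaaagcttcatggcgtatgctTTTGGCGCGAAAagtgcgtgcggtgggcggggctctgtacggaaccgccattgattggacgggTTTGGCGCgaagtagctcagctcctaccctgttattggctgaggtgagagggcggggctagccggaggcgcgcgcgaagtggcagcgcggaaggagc
Mcm3 (chr1:20820263-20820562): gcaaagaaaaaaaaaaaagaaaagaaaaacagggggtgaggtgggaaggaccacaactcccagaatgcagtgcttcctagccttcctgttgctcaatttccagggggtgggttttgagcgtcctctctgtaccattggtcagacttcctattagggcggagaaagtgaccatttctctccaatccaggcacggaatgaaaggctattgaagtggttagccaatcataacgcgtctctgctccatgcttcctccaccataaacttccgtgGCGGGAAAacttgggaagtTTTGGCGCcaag
Mcm7 (chr5:138171834-138172133): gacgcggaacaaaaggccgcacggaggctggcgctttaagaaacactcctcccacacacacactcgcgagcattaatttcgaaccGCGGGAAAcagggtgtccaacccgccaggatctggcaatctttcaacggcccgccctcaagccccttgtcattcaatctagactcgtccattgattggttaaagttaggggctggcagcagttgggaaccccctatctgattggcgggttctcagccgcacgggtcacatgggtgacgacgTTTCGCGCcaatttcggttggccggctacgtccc
Rfc3 (chr5:151651159-151651458): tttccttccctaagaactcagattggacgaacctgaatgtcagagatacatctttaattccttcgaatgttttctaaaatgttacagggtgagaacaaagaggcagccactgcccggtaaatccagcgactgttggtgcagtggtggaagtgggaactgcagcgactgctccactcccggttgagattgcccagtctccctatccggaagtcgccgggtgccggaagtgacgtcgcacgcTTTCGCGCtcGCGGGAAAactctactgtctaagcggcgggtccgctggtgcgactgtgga
Tk1 (chr11:117825965-117826264): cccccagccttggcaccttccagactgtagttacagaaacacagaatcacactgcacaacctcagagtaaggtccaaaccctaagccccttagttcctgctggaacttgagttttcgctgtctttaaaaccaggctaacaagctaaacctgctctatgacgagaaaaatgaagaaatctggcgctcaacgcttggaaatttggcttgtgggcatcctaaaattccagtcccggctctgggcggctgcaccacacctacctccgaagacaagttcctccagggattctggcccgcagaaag
Rfc1 (chr5:65335590-65335889): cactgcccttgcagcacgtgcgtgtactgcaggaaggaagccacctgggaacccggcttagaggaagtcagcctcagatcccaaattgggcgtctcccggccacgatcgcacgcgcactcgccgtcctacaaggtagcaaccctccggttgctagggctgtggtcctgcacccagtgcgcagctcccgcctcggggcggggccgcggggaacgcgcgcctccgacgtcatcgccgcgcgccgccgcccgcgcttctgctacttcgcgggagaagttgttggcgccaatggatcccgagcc

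An E2F word was found in 16 of the 54 windows of the replication genes (29.6%), against 3.88% of 13339 windows of all genes compared and 2.26% of all 32851 windows in the table. Windows with 2 or more separate matches made up 7.41% of those of the replication genes and 0.172% of those of the genes compared. Base composition was alike, with a median GC content of 61.3% in the windows of the replication genes and 61.0% in those of the genes compared. In Mcm6, TTTGGCGC and an overlapping TTTCGCGC on the other strand share 1 stretch of capitals, and a second TTTGGCGC follows nearer the start. In Rfc3 the 2 words lie within a few bases of each other at the annotated start itself.

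The word CCAAT, bound by NF-Y, was in 59.3% of the windows of the replication genes and 37.9% of those of the genes compared. The word TTTGAA, the core of the CHR element of mitotic genes, was in 20.4% and 11.6%. The Tk1 window held none of the 3 kinds of word, and the Rfc1 window held CCAAT alone. Mcm7 has 2 annotated windows. The windows printed for Mcm7, Tk1 and Rfc1 each surround a start inside the span of the gene, so a window does not stand for every start in use. The 16 genes with an E2F word had a median day 3 to day 0 log2 ratio of -3.84 in Ctrl, and the 29 genes with windows but no such word had -3.04. Their ranges overlapped widely, from -4.57 to -1.80 with the word and from -5.59 to -0.90 without it. A match is a description of letters in a window and not evidence of binding.

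**Figure D1:**
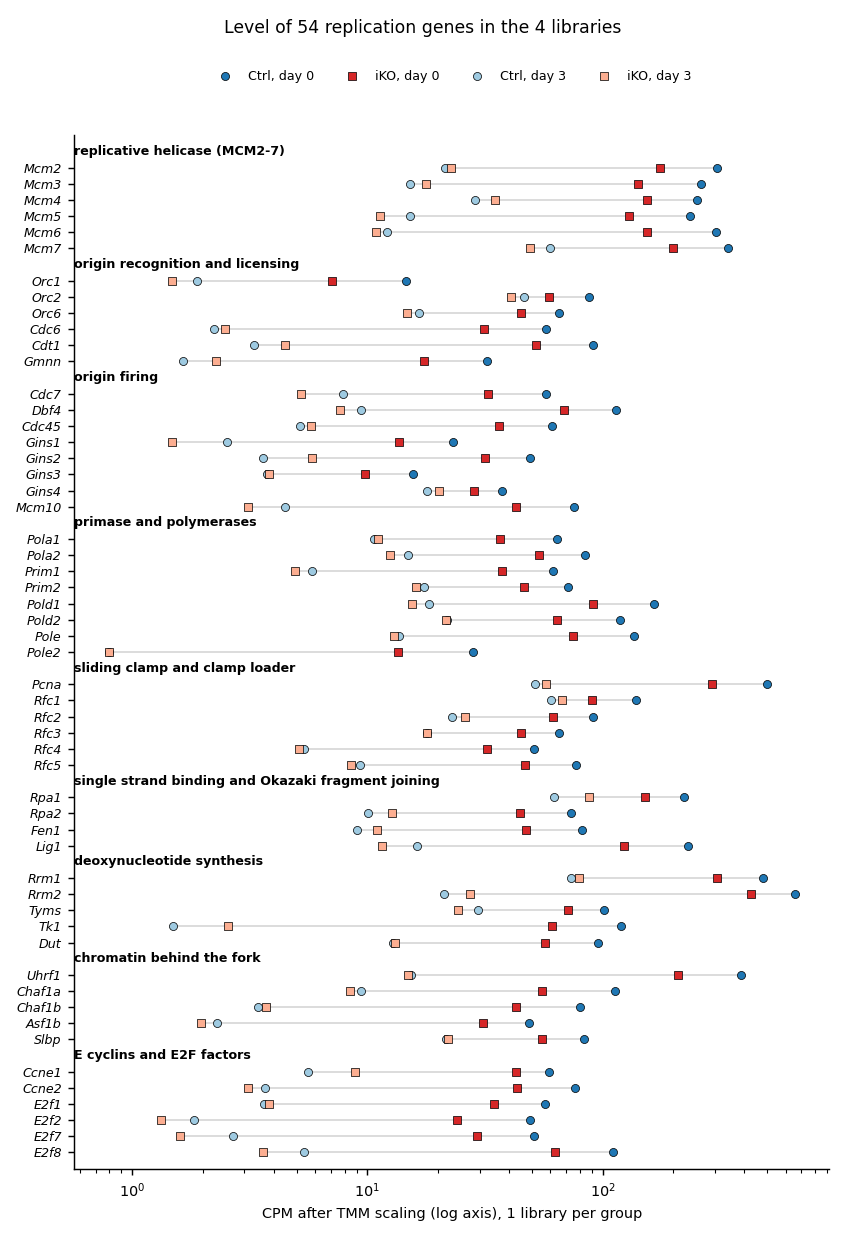
Level of each of the 54 genes (CPM after TMM scaling, log axis) in the 4 libraries, grouped by role, with 1 symbol per library and a grey line from the lowest to the highest. Both day 0 symbols lie to the right of both day 3 symbols in every gene, and at day 0 iKO lies to the left of Ctrl in all 54.

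The question of the day 3 to day 0 comparison is how much of the replication programme was left once the growth factors were withdrawn. In Ctrl all 54 genes were lower at day 3, with a median log2 ratio of -3.19 (range -5.59 to -0.90) on the log2(CPM + 1) scale, against -0.02 over all genes compared. At least 2-fold lower were 53 of the 54, against 15.1% of all genes compared. Orc2, the exception, was 1.88-fold lower (interval 1.74 to 2.04). Tk1 had the seventh lowest ratio of the 12976 genes, and 12 of the 100 lowest ratios were of replication genes. The summed level of the 54 was 7316 CPM in Ctrl at day 0 and 862 at day 3. In bulk RNA, fewer cells in S phase and less RNA per cell cannot be told apart.

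In iKO the 54 genes were also all lower at day 3, with a median log2 ratio of -2.44 (range -4.13 to -0.43) against -0.01 over all genes. At least 2-fold lower were 50 of the 54, against 11.5% of all genes. The other 4 were Orc2, Gins4, Rfc1 and Rpa1. The summed level was 4340 CPM in iKO at day 0 and 886 at day 3, so the 2 genotypes started apart and ended close together. Relative to its own day 0, a gene kept a median of 10.2% of its level in Ctrl (1.25% to 53.2%) and 16.6% in iKO (4.18% to 74.1%).

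**Figure D2:**
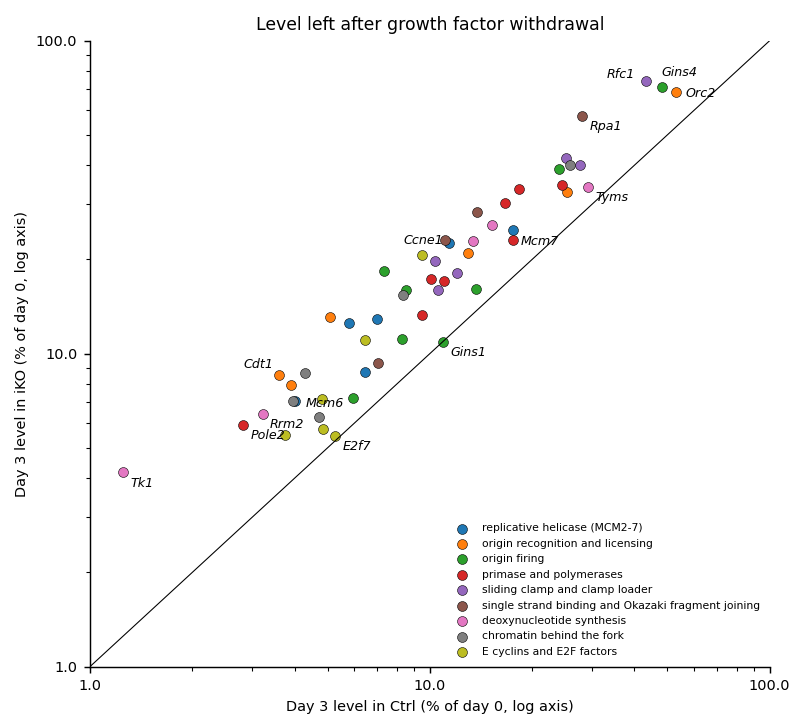
Day 3 level as a percentage of the day 0 level in Ctrl (x axis) and in iKO (y axis), both on log axes, 1 point per gene, coloured by role, with the line of equal percentages. Tk1 kept 1.25% in Ctrl and 4.18% in iKO, while Orc2 kept 53.2% and 68.5%, and the points lie on or above the line.

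At day 0, in growth medium, all 54 genes were lower in iKO than in Ctrl, and all 54 intervals lay below 1. Of all genes compared, 56.5% lay below 0 and 39.5% had an interval below 1. The median log2 ratio of the 54 was -0.75, against -0.06 over all genes, and the ratios were tightly grouped, with quartiles of -0.85 and -0.62 and a range from -1.02 (Chaf1a) to -0.39 (Gins4). On the log2(CPM + 1) scale, at least 1.5-fold lower were 46 of the 54 (5.5% of all genes), and at least 2-fold lower were 3 of them, Pole2, Chaf1a and E2f2 (0.331% of all genes). Without the pseudocount the CPM ratio of Orc1 was also past 2-fold. Scaling by library totals put 31 of the 54 at least 1.5-fold lower (2.63% of all genes). The deposited FPKM, a level per transcript length, put 30 (2.03% of all genes), with all 54 below 0 in both. The level in iKO was a median of 58.5% of that in Ctrl, from 47.8% to 75.7%.

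At day 3 the genotypes were no longer apart in 1 direction. The median log2 ratio of iKO to Ctrl was -0.01 (range -0.51 for Gins1 to 0.57 for Ccne1), the same as the -0.01 of all genes. Of the 54, 29 lay below 0, against 51.3% of all genes, and 25 above it. Library totals moved this to 34 below and 20 above, the deposited FPKM to 35 and 19, and the DESeq2 size factors to 27 and 27. On the log2(CPM + 1) scale 0 of the 54 were at least 1.5-fold lower (11.3% of all genes) and 0 at least 1.5-fold higher (15.1% of all genes). Without the pseudocount the CPM ratio passed 1.5 upwards in Tk1, Gins2 and Ccne1 and downwards in Gins1 and E2f7, all below 10 CPM at day 3. The interval lay above 1 for 11 genes (34.5% of all genes) and below 1 for 12 (35.6% of all genes), and it held 1 for 31. With library totals the 11 became 6 (29.4% of all genes) and the 12 became 14 (42.3% of all genes). The interval lay below 1 at day 0 and above 1 at day 3 for 11 of the 54, against 6.94% of all genes. Those 6.94% were 901 genes, out of the 5129 genes with a day 0 interval below 1. All 54 had such a day 0 interval, so 11 of 54 is to be set against 901 of 5129. These shares were close.

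**Figure D3:**
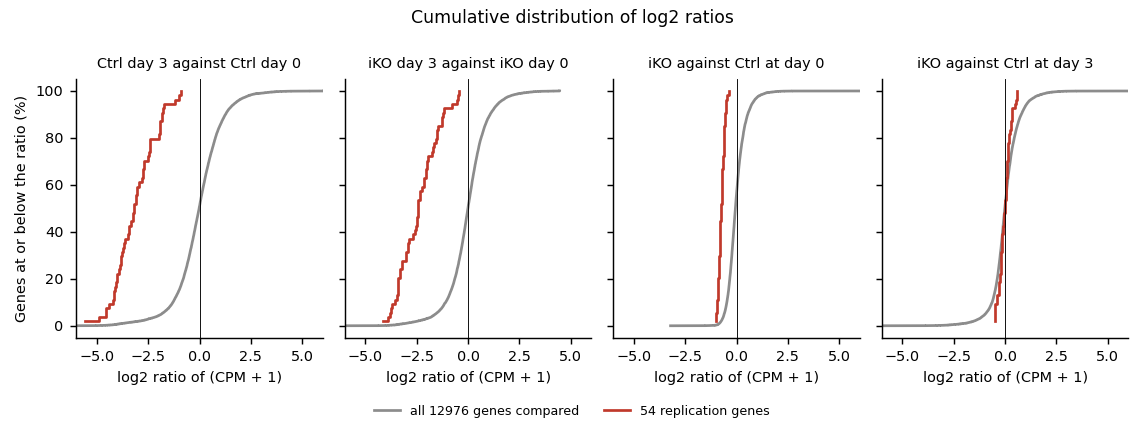
Cumulative share of genes (y axis, %) at or below each log2 ratio of CPM + 1 (x axis) for the 54 replication genes (red) and all 12976 genes compared (grey), in 4 comparisons. The red curve lies left of the grey in both day 3 to day 0 panels and at day 0, where it is steep around -0.75, and it crosses the grey near 0 at day 3.

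On the log2(CPM + 1) scale the ratio of iKO to Ctrl was higher at day 3 than at day 0 in all 54 genes (55.7% of all genes compared). The median difference was 0.74, from 0.22 (Gins1) to 1.47 (Tk1), against 0.06 over all genes. The pseudocount pulls the day 3 ratio of low genes towards 1. It thus adds to this difference where that ratio is below 1 and takes from it where that ratio is above 1. Without the pseudocount the CPM ratio of Gins1 was 0.585 on both days, and that of E2f7 was 0.572 at day 0 and 0.592 at day 3. That of Tk1 was 0.511 and 1.70. A pseudocount of 0.1 CPM put the median difference at 0.75 and one of 5 CPM at 0.70. As reported, the difference was at least 1.5-fold upwards in 36 of the 54 (13.1% of all genes) and downwards in 0 (11.6% of all genes). Library totals put the 36 at 22 (7.59% of all genes) and the deposited FPKM at 23 (6.29% of all genes). This difference uses all 4 libraries and so shares them with each comparison above, and it has no replicate check.

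**Figure D4:**
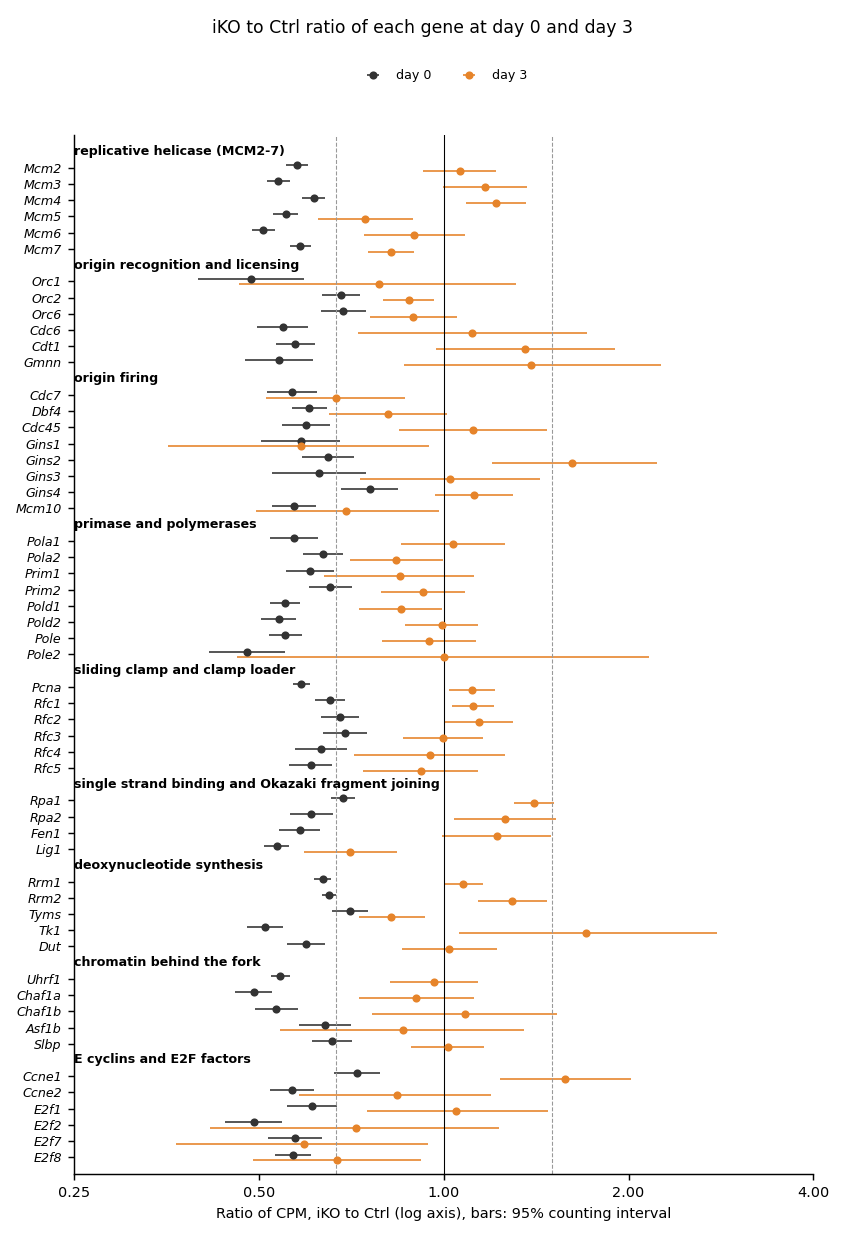
CPM ratio of iKO to Ctrl (log axis) for each gene at day 0 (black) and day 3 (orange), bars giving the 95% counting interval, with a solid line at 1 and dashed lines at 1.5-fold either way. All black points lie left of 1, from 0.478 (Pole2) to 0.757 (Gins4), while the orange points lie on both sides of 1 with wider bars.

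By role, the day 0 medians of iKO against Ctrl lay between -0.88 (chromatin behind the fork) and -0.63 (clamp and clamp loader), a narrow range beside the day 3 to day 0 medians in Ctrl, which ran from -3.93 (E cyclins and E2F factors) to -2.44 (clamp and clamp loader). At day 3 the medians of iKO against Ctrl ran from -0.24 in the E cyclins and E2F factors to 0.28 in single strand binding and Okazaki fragment joining.

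The 6 subunits of the MCM2-7 helicase, the ring that unwinds DNA ahead of the fork, had day 0 log2 ratios of iKO to Ctrl from -0.97 (Mcm6) to -0.70 (Mcm4), and all 6 were at least 1.5-fold lower. Mcm6 stood on day 0 at 304 CPM in Ctrl and 154 in iKO, and on day 3 at 12.1 and 10.9. It had the lowest day 3 to day 0 ratio of the 6, 25.0-fold lower in Ctrl (interval 22.0 to 28.5) and 14.2-fold lower in iKO (12.3 to 16.4). Mcm7 stood at 341 and 199 CPM at day 0 and at 60.0 and 49.3 at day 3, and was 5.68-fold lower at day 3 in Ctrl (5.34 to 6.04). The subunits assemble in equal numbers into 1 ring, but the RNA level per length of Mcm7 stood apart from the others at day 3. Mcm7, the highest, was 2.05 times the lowest at day 0 in Ctrl and 6.09 times the lowest at day 3. The spread was 1.95 times at day 0 and 5.59 times at day 3 in iKO. Without Mcm7, the others in Ctrl ran from 67.6 (Mcm4) to 97.7 FPKM (Mcm6) at day 0. At day 3 they ran from 4.11 (Mcm6) to 8.11 FPKM (Mcm4), against 25.0 for Mcm7.

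At day 3 the log2 ratio of iKO to Ctrl lay above 0 in 3 of the 6 helicase genes and below 0 in 3. Of all genes compared, 34.5% had an interval above 1 there and 35.6% below 1. Mcm4 stood on day 0 at 253 CPM in Ctrl and 155 in iKO, and on day 3 at 28.7 and 34.9, where iKO was 1.22-fold higher (1.09 to 1.36). Mcm5 stood at 235 and 130 CPM at day 0 and at 15.2 and 11.3 at day 3, where iKO was 1.34-fold lower (1.12 to 1.61). Mcm7 was 1.22-fold lower at day 3 (1.12 to 1.33), a log2 ratio that was -1.07 with its most counted transcript alone in place of -0.28, and the intervals of Mcm2, Mcm3 and Mcm6 held 1. Mcm2 stood at 306, 176, 21.4 and 22.7 CPM in Ctrl and iKO on day 0 and Ctrl and iKO on day 3. Mcm3, at 264, 142, 15.2 and 17.8 CPM in Ctrl and iKO at day 0 and Ctrl and iKO at day 3, had the largest difference between the days of the 6, with log2 ratios of -0.89 and 0.21.

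Among the genes of origin recognition and licensing, Cdt1 and Cdc6, which load the helicase, and Gmnn, the Cdt1 inhibitor geminin, were far lower at day 3, while 2 subunits of the recognition complex, Orc2 and Orc6, were less so. Cdt1 stood on day 0 at 91.2 CPM in Ctrl and 52.3 in iKO, and on day 3 at 3.28 and 4.45. It was 27.8-fold lower at day 3 in Ctrl (21.7 to 36.1) and 11.7-fold lower in iKO (9.40 to 14.8). Orc2 stood at 87.5 and 59.5 CPM at day 0 and at 46.5 and 40.8 at day 3. Of the 54 genes, it kept the highest share of its day 0 level in Ctrl. At day 0 Cdt1 and Orc6 were the most abundant of the 6 per length, with 40.2 and 39.5 FPKM in Ctrl, and at day 3 Orc2 was, with 13.9 FPKM in Ctrl and 11.6 in iKO.

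Orc1, the subunit of the recognition complex that is known to vary over the cycle, had the lowest level per length of the 54 at day 0. It stood on day 0 at 14.6 CPM in Ctrl and 7.07 in iKO, and on day 3 at 1.89 and 1.48, and was 2.06-fold lower in iKO at day 0 (1.69 to 2.52). Orc6 had the day 0 ratio nearest to 1 in its role group, at 65.4 and 44.8 CPM, or 1.46-fold lower (1.34 to 1.59), and stood at 16.5 and 14.7 CPM at day 3. Gmnn stood at 32.4, 17.4, 1.64 and 2.28 CPM in Ctrl and iKO at day 0 and Ctrl and iKO at day 3. Its day 3 interval ran from 0.862 to 2.26, so a difference between genotypes was not detectable at that depth. The same held for Cdt1, whose interval ran from 0.971 to 1.90, and for Cdc6, which stood at 57.4, 31.3, 2.24 and 2.49 CPM in the same order with an interval from 0.724 to 1.71.

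The genes of origin firing turn the loaded helicase on. Mcm10, needed for helicase activation, stood on day 0 at 75.3 CPM in Ctrl and 42.9 in iKO, and on day 3 at 4.47 and 3.10, and was 16.9-fold lower at day 3 in Ctrl (13.6 to 21.0). Cdc7, the kinase that phosphorylates the MCM ring, stood at 57.5 and 32.6 CPM at day 0 and at 7.86 and 5.25 at day 3. It was 1.76-fold lower in iKO at day 0 (1.61 to 1.94) and 1.498-fold lower at day 3 (1.16 to 1.95). Dbf4, its activating subunit, lay above Cdc7 per length in every library, by 2.42 times in Ctrl at day 0 and 1.49 times at day 3. It stood on day 0 at 114 CPM in Ctrl and 68.6 in iKO, and on day 3 at 9.40 and 7.63.

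GINS is a complex of 4 subunits in 1 copy each, and its genes differed most among themselves. Gins4 stood on day 0 at 37.4 CPM in Ctrl and 28.3 in iKO, and on day 3 at 18.0 and 20.2, so that it kept 48.2% of its level in Ctrl and 71.3% in iKO. Gins2 stood at 49.0 and 31.7 CPM at day 0 and at 3.59 and 5.81 at day 3, 13.6-fold lower in Ctrl (10.8 to 17.6). Gins3, the lowest of the 4 per length in Ctrl on both days, stood at 15.6, 9.77, 3.73 and 3.82 CPM in Ctrl and iKO on day 0 and Ctrl and iKO on day 3. Per length, Gins2 was the highest of the 4 at day 0 (46.5 FPKM in Ctrl) and Gins4 at day 3 (13.6 FPKM in Ctrl and 14.4 in iKO).

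At day 3 Gins1 and Gins2 lay at opposite ends of the 8 firing genes. Gins2 was 1.62-fold higher in iKO (1.20 to 2.22). Gins1, at 23.2 and 13.6 CPM at day 0 and 2.54 and 1.48 at day 3, was 1.71-fold lower in iKO (1.06 to 2.82), and the CPM ratio was 1.71-fold lower on both days. Cdc45, which joins GINS in the active helicase, stood at 60.9, 36.3, 5.17 and 5.78 CPM in Ctrl and iKO at day 0 and Ctrl and iKO at day 3. Its sum covers several transcripts, and with its most counted transcript alone the difference between the days turned to -1.33 from 0.87. That transcript was given 0 counts in iKO at day 3, where the gene had 109.

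**Figure D5:**
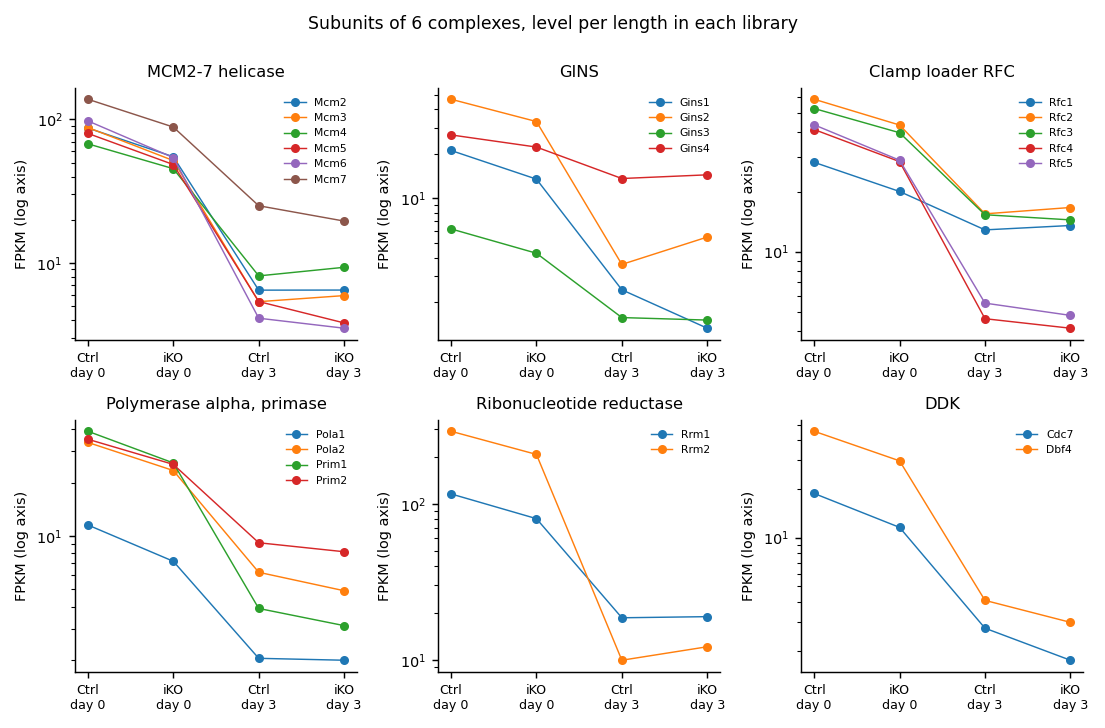
FPKM (log axis) of the subunits of 6 complexes in the 4 libraries, 1 line per gene joining its 4 values. The MCM2-7 subunits lie within 2.05 times of each other in Ctrl at day 0 and within 6.09 times at day 3, with Mcm7 the highest on both days. The order of the ribonucleotide reductase subunits Rrm2 and Rrm1 is reversed between the days.

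The polymerase genes lay close together at day 0, where all 8 were at least 1.5-fold lower in iKO, with log2 ratios from -1.01 (Pole2) to -0.60 (Prim2). Pole2, the second subunit of the leading strand polymerase epsilon, stood on day 0 at 28.1 CPM in Ctrl and 13.4 in iKO, and on day 3 at 0.795 in both. It was 2.09-fold lower in iKO at day 0 (1.82 to 2.42), and 35.4-fold lower at day 3 in Ctrl (21.6 to 62.3). Its day 3 values rest on the lowest count of any of the 54, 15 in iKO. Prim2, the large primase subunit, stood at 71.1 and 46.4 CPM at day 0 and at 17.4 and 16.1 at day 3. Prim1, the catalytic subunit of primase, was the highest of the 4 polymerase alpha and primase genes per length at day 0 (39.0 FPKM in Ctrl), and Prim2 was at day 3 (9.16 FPKM in Ctrl and 8.15 in iKO). In CPM, Prim1 stood at 61.4, 37.2, 5.82 and 4.93 in Ctrl and iKO on day 0 and Ctrl and iKO on day 3.

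Pold2, a subunit of the lagging strand polymerase delta, was the most abundant of the 8 per length in all 4 libraries, with 71.7 and 42.3 FPKM in Ctrl and iKO on day 0 and 13.8 and 12.9 on day 3. At day 3 the intervals of Pola2 and Pold1 lay below 1. Pola2, the second subunit of polymerase alpha, stood at 84.6 and 53.8 CPM at day 0 and at 14.9 and 12.4 at day 3, where iKO was 1.20-fold lower (1.003 to 1.42), an interval that held 1 with DESeq2 size factors. Pold1, the catalytic subunit of polymerase delta, stood on day 0 at 165 CPM in Ctrl and 90.9 in iKO, and on day 3 at 18.2 and 15.5, or 1.18-fold lower (1.01 to 1.38). Pole, the catalytic subunit of polymerase epsilon, stood at 136, 74.8, 13.7 and 12.9 CPM in the same order, and its day 3 interval held 1. Pola1, the catalytic subunit of polymerase alpha, stood at 64.1 and 36.5 CPM at day 0 and at 10.7 and 11.1 at day 3. Its day 3 log2 ratio of 0.05 turned to -0.03 with library totals and to -0.02 with FPKM.

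Pcna, the sliding clamp that tethers the polymerases to DNA, was the most abundant of the 54 genes per length in every library. On day 0 it had 387 FPKM in Ctrl and 248 in iKO, and on day 3 42.4 and 44.6. In CPM it stood at 499, 292, 51.7 and 57.6, and was 1.71-fold lower in iKO at day 0 (1.65 to 1.76). Counts of Pcna and Tyms could take in reads of pseudogenes, since the annotation lists Pcna-ps1, Pcna-ps2 and Tyms-ps and the deposited tables have no row for them.

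The clamp and its loader RFC, which opens the clamp onto DNA, had the highest median day 3 to day 0 log2 ratio of the 9 role groups, at -2.44 in Ctrl and -1.80 in iKO. Rfc1, the large subunit of the loader, stood on day 0 at 139 CPM in Ctrl and 90.6 in iKO, and on day 3 at 60.2 and 67.1. It kept 43.3% of its level in Ctrl and 74.1% in iKO, the highest share of the 54 in iKO. Rfc4, a small subunit of the same loader, stood at 51.1 and 32.2 CPM at day 0 and at 5.40 and 5.13 at day 3, 9.46-fold lower in Ctrl (7.73 to 11.6). The subunits thus lay within 2.08 times of each other per length in Ctrl at day 0 and within 3.37 times at day 3. Rfc3 stood at 65.1, 45.0, 18.0 and 18.0 CPM, Rfc2 at 91.1, 61.8, 22.9 and 26.1, and Rfc5 at 77.5, 47.0, 9.30 and 8.53, in Ctrl and iKO at day 0 and Ctrl and iKO at day 3. At day 3 the intervals of Pcna, Rfc1 and Rfc2 lay above 1, though with library totals all 3 held it, as did those of Rfc3, Rfc4 and Rfc5 in both.

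Of the 4 genes of single strand binding and Okazaki fragment joining, 3 lay above 0 at day 3 and Lig1 below it. Rpa1, the large subunit of the protein that coats single stranded DNA, stood on day 0 at 222 CPM in Ctrl and 152 in iKO, and on day 3 at 62.4 and 87.5. It was 1.46-fold lower in iKO at day 0 (1.40 to 1.53) and 1.40-fold higher at day 3 (1.30 to 1.51). Lig1, the ligase that seals Okazaki fragments, stood at 231 and 124 CPM at day 0 and at 16.3 and 11.5 at day 3. It was 1.87-fold lower in iKO at day 0 (1.79 to 1.97) and 1.42-fold lower at day 3 (1.19 to 1.69). Fen1, the nuclease that trims the fragments before ligation, stood at 81.5, 47.4, 9.003 and 11.0 CPM in Ctrl and iKO at day 0 and Ctrl and iKO at day 3, and its day 3 interval, 0.993 to 1.496, held 1. Rpa2, the middle subunit, stood at 73.6 and 44.8 CPM at day 0 and at 10.1 and 12.7 at day 3.

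The deoxynucleotide genes ranged widely, from Tk1, which kept 1.25% of its day 0 level in Ctrl, to Tyms, which kept 29.3%. Tk1, the S phase thymidine kinase of the salvage pathway, stood on day 0 at 119 CPM in Ctrl and 60.9 in iKO, and on day 3 at 1.49 and 2.54. It was 80.0-fold lower at day 3 in Ctrl (55.9 to 119) and 23.9-fold lower in iKO (18.0 to 32.6). At day 3 it was 1.70-fold higher in iKO than in Ctrl (1.06 to 2.79), which turned to a log2 ratio of -0.71 with its most counted transcript alone. That transcript was given 0 counts in iKO at day 3, where the gene had 48. Tyms, which makes thymidylate de novo, stood at 101 and 71.2 CPM at day 0 and at 29.7 and 24.4 at day 3, and was 3.41-fold lower at day 3 in Ctrl (3.12 to 3.75).

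Ribonucleotide reductase makes deoxynucleotides from ribonucleotides with a large subunit, Rrm1, and a small one that is regulated over the cycle, Rrm2. Rrm2 stood on day 0 at 659 CPM in Ctrl and 428 in iKO, and on day 3 at 21.2 and 27.5. Rrm1 stood at 483 and 306 CPM at day 0 and at 73.5 and 79.1 at day 3. Rrm2 was 31.0-fold lower at day 3 in Ctrl (28.2 to 34.2) and Rrm1 6.57-fold (6.22 to 6.95). Per length, Rrm2 was 2.52 times Rrm1 in Ctrl at day 0 and 2.58 times in iKO, and at day 3 Rrm1 was 1.87 times Rrm2 in Ctrl and 1.56 times in iKO. Dut, which removes dUTP, stood at 95.9, 57.2, 12.8 and 13.1 CPM in Ctrl and iKO at day 0 and Ctrl and iKO at day 3.

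The genes that act on chromatin behind the fork had some of the lowest ratios. Uhrf1, which brings DNA methylation to the new strand, stood on day 0 at 388 CPM in Ctrl and 210 in iKO, and on day 3 at 15.4 and 14.8, and was 25.2-fold lower at day 3 in Ctrl (22.5 to 28.3). Chaf1a, the large subunit of the CAF-1 histone chaperone, stood at 113 and 55.2 CPM at day 0, the lowest day 0 log2 ratio of the 54, and at 9.40 and 8.48 at day 3. It was 2.04-fold lower in iKO at day 0 (1.90 to 2.19). Chaf1b, its partner, stood at 80.0, 42.7, 3.43 and 3.71 CPM, and Asf1b, which hands histones to CAF-1, at 48.6, 31.2, 2.29 and 1.96, in Ctrl and iKO at day 0 and Ctrl and iKO at day 3. Slbp, which binds the end of histone mRNA, stood at 83.7, 55.1, 21.7 and 22.0 CPM in the same order and kept 25.9% of its level in Ctrl and 39.95% in iKO. None of the 5 had a day 3 interval that excluded 1.

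The E cyclins and E2F factors are the regulators of the set. E2f1 and E2f2 activate S phase genes, E2f7 and E2f8 repress them later in the cycle, and the E cyclins activate Cdk2. E2f2 stood on day 0 at 49.1 CPM in Ctrl and 24.0 in iKO, and on day 3 at 1.84 and 1.33, and was 2.04-fold lower in iKO at day 0 (1.84 to 2.27). E2f1 stood at 56.7 and 34.5 CPM at day 0 and at 3.65 and 3.82 at day 3. E2f8, the most abundant of the 6 per length in Ctrl at day 0 (29.9 FPKM), stood at 110 and 62.7 CPM at day 0 and at 5.37 and 3.60 at day 3.

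At day 3 the counting intervals of the repressors lay below 1, as did those of 35.6% of all genes. E2f7, at 50.9 and 29.1 CPM at day 0 and 2.69 and 1.59 at day 3, was 1.69-fold lower in iKO at day 3 (1.06 to 2.73), and E2f8 was 1.49-fold lower (1.09 to 2.05). For E2f1 and E2f2 the day 3 intervals held 1, though E2f2 was 1.39-fold lower in iKO (0.814 to 2.41), on 37 counts in Ctrl and 25 in iKO. Ccne1, cyclin E1, had the highest day 3 log2 ratio of the 54. It stood on day 0 at 59.3 CPM in Ctrl and 42.8 in iKO, and on day 3 at 5.62 and 8.85, 1.58-fold higher in iKO (1.23 to 2.02). Ccne2, cyclin E2, stood at 76.4, 43.2, 3.69 and 3.10 CPM in Ctrl and iKO at day 0 and Ctrl and iKO at day 3, and its day 3 interval, 0.582 to 1.19, held 1.

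Other genes of the same pathways were counted from lists. Beside these counts, 15.1% of all genes lay at least 2-fold lower on day 3 in Ctrl and 5.5% at least 1.5-fold lower in iKO on day 0. Of 31 other fork and origin genes, 23 lay at least 2-fold lower on day 3 in Ctrl and 15 at least 1.5-fold lower in iKO at day 0, with a median day 0 log2 ratio of -0.58. Of 9 S phase kinase and licensing turnover genes, 9 lay at least 2-fold lower on day 3 in Ctrl and 9 at least 1.5-fold lower in iKO at day 0 (median -0.79). The 18 mitosis genes had a median of -4.07 at day 3 in Ctrl and -0.72 for iKO against Ctrl at day 0, with 17 at least 1.5-fold lower there. Of 12 genes of replication stress and damage signalling, 3 lay at least 1.5-fold lower in iKO on day 0 (Chek1, Wee1 and Etaa1). On day 3, 1 of the 12, the kinase gene Wee1, lay at least 1.5-fold higher (15.1% of all genes), at 10.8 CPM in Ctrl and 18.9 in iKO.

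Nucleotide supply genes outside the 54 were less uniform. Of 17 genes of de novo purine and pyrimidine synthesis, 13 lay at least 2-fold lower on day 3 in Ctrl (15.1% of all genes) and 3 at least 1.5-fold lower in iKO at day 0 (5.5% of all genes). Of 12 other deoxynucleotide and folate genes, 8 lay at least 2-fold lower on day 3 in Ctrl. Between the genotypes, day 3 iKO was at least 2-fold higher for 2 (6.28% of all genes) and lower for 1 (4.78% of all genes). The lower one was Dck, the deoxycytidine kinase, at 45.9 CPM in Ctrl and 22.3 in iKO. The higher ones were Mthfd2, a mitochondrial folate enzyme, and Dctd, which makes dUMP from dCMP. Mthfd2 stood on day 0 at 59.8 CPM in Ctrl and 43.1 in iKO, and on day 3 at 4.68 and 24.2, 5.18-fold higher in iKO (4.14 to 6.54). Dctd stood at 24.4, 19.0, 2.93 and 13.0 CPM in the same order, 4.44-fold higher in iKO at day 3 (3.33 to 6.01).

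The 21 genes of the RB, E2F and DREAM list, which holds further E2F factors, had a median log2 ratio of iKO to Ctrl of -0.33 at day 0. At day 3 it was 0.02, and the cyclin D genes stood apart. Ccnd2, cyclin D2, stood on day 0 at 1755 CPM in Ctrl and 2012 in iKO, and on day 3 at 315 and 1127. Ccnd1, cyclin D1, stood at 2691, 3217, 154 and 312 CPM in the same order. Of 20 p53 target genes, 14 lay at least 1.5-fold higher in iKO on day 0 (8.91% of all genes) and 17 on day 3 (15.1% of all genes), with medians of 0.85 and 1.59. Cdkn1a, the CDK inhibitor p21, stood on day 0 at 513 CPM in Ctrl and 926 in iKO, and on day 3 at 43.1 and 578. At day 0 the higher Cdkn1a lay beside lower replication genes, and at day 3 Cdkn1a was 13.4-fold higher in iKO (12.5 to 14.4) beside replication genes with a median log2 ratio of -0.01. The part of these genes in the values of the 54 was not tested.

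None of the 54 was among the 103 genes of the authors' deposited table for day 0 or the 1774 of that for day 3. In the authors' deposited tables the smallest size of a log2 ratio was 1.00, so the day 0 differences of the replication genes lay mostly below that table's range.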

How the data were processed

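The 54 genes and the gene lists were chosen with earlier results of these data known. The authors deposited, for every library, expected counts and an expression value for 55122 transcripts. HISAT, Bowtie2, StringTie and the mm10 build are named per the submitters' processing notes, with no tool tied to the expected counts. The deposited expression value has no unit in the header. It was read as FPKM, since count over length and value kept a nearly fixed proportion within each library. Log2 ratios and FDR values (adjusted p-values) in the authors' deposited gene tables compare 2 libraries each, and served only to look up the 54 genes.

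Expected counts were summed per gene over its transcripts and rounded for scaling with TMM (edgeR 4.0.16, R 4.3.3), with factors of 0.966 and 1.06 for Ctrl and iKO at day 0 and 1.02 and 0.962 at day 3. A minimum mean of 1 CPM left out 4645 genes. The log2 ratio used a pseudocount of 1 CPM, which understates ratios of low genes. Folds are ratios of CPM without it, with exact conditional (Clopper-Pearson) 95% intervals of the counts (scipy 1.17.1). Levels were compared between genes only in FPKM. With 1 library per group no test was run, and no library could be left out. Counts of the 54 ran from 154 up at day 0, and 20 of them had under 100 counts in a day 3 library.

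The 9 alternatives took pseudocounts of 0.1 or 5 CPM, no minimum or a mean of 5 CPM, scaling by library totals or by DESeq2 1.42.0, TMM without 170 ribosomal protein and histone genes, the deposited FPKM, and the most counted transcript of each gene alone. Within each role, values are given for the gene highest per length and those with the lowest and highest ratio in a comparison. Other genes of the 54 were added for their role, and from each other list at most 2 genes with the largest ratios, with Seh1l and Cdkn1a as checks. Dck, Chek1, Wee1 and Etaa1 were named after their values were seen, to account for small counts. The interval code was tested on simulated counts. Promoter windows came from RefSeq, GRCm38.p6.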

Additional observations from a re-analysis of the deposited data

Results flagged for a closer look

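In 11 of the 54 genes the single iKO library lay below the Ctrl library at day 0 and above it at day 3, with counting intervals on opposite sides of 1. This pattern was found in 901 genes, which is 6.94% of all 12976 genes compared. Only 5129 of the 12976 had a day 0 interval below 1, while all 54 replication genes did. The like comparison is thus 11 of 54 against 901 of 5129, and these shares were close. The difference between the days was not tested, since each group is 1 library. As a log2 difference it was 1.47 in Tk1, 1.18 in Gins2 and 1.03 in Ccne1. It was 1.03 in Rpa1 and 1.01 in Rpa2. The ribonucleotide reductase genes Rrm2 and Rrm1 gave 0.98 and 0.76. Mcm4 gave 0.97, Pcna 0.92, Rfc1 0.77 and Rfc2 0.73. Scaled by library totals, the day 3 interval still lay above 1 for 6 of the 11 (Mcm4, Gins2, Rpa1, Rrm2, Tk1 and Ccne1), while for Pcna, Rfc1, Rfc2, Rpa2 and Rrm1 it held 1. With the most counted transcript alone, which had 0 counts in iKO at day 3, the day 3 log2 ratio of Tk1 was -0.71.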

How the results depend on the processing

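Under the 9 alternatives all 54 genes stayed below 0 in both day 3 to day 0 comparisons and in iKO against Ctrl at day 0. With a pseudocount of 5 CPM the median log2 ratio of day 3 to day 0 was -2.63 in Ctrl and -1.92 in iKO, and with FPKM it was -2.91 in Ctrl. The day 0 median of iKO against Ctrl was -0.63 with library totals and -0.60 with FPKM. With FPKM 30 genes were at least 1.5-fold lower (2.03% of all genes) in place of 46 (5.5% of all genes). At day 3, in place of 0 and 0, a pseudocount of 0.1 CPM put 2 genes at least 1.5-fold lower (12.9% of all genes) and 3 higher (17.1%). The most counted transcript alone put 5 lower (15.4% of all genes) and 2 higher (17.8%). The difference between the days was at least 1.5-fold upwards in 22 genes with library totals (7.59% of all genes) and 23 with FPKM (6.29%), in place of 36 (13.1%). It was at least 1.5-fold downwards in 1 with the most counted transcript alone (16.7% of all genes). That transcript alone turned the sign of the difference in Cdc45 (-1.33, with 0 counts in iKO at day 3) and E2f8 (-0.27). It also turned the sign of 11 of the 54 day 3 ratios of iKO to Ctrl. Among them were Tk1 (-0.71, also with 0 counts in iKO at day 3), Mcm10 (0.38) and Orc2 (0.34), whose counting intervals excluded 1. For the other changes the cause was not tested. Library totals shifted the median of all genes by 0.12 at day 0, -0.08 at day 3 and -0.20 for the difference. Of 2430 alternative values of single genes, 2126 moved by no more than the mean log2 distance from a ratio to the ends of its counting interval. For the difference between the days, the distances at day 0 and day 3 were combined as a root sum of squares. Of all 2430, 28 changed sign, and in 4 of these (Cdc45, Tk1, Mcm10 and Orc2) the value reported was past 1.5-fold or had an interval that excluded 1. No paired analysis was possible because each group is 1 library. Depth limits the day 3 ratios, where 20 of the 54 genes had under 100 counts in a library.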
